A study of Rattus norvegicus with 67 samples.

Results

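The transcripts described here had almost no RNA in normal rat endometrium and were present in at least some endometrial tumours. They were chosen by their measured levels: a TPM below 1 in each of 31 normal libraries, and a TPM of at least 5 in 2 or more of 31 tumour libraries. TPM is the share of a library's RNA molecules assigned to a transcript, corrected for its length and given on a scale common to all libraries, and a transcript at a TPM of at least 5 is called on. Of 31715 transcripts, 109 met both conditions. Separately, 9599 were below 1 in the normal libraries and 15781 were on in 2 or more tumours. Because tumour and normal levels chose the members, their difference between the tissues is a description and was not tested.

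The animals were female BDII/Han rats, an inbred strain that develops endometrial cancer spontaneously, fed normal chow with 3% of energy as fat (NCD) or a high fat diet with 60% (HFD) from month 3 to month 15. Some HFD rats also received liraglutide, which activates the GLP-1 receptor, at up to 0.24 mg/kg per day, and others had their HFD restricted from month 12. Values were analysed for 14 tumour libraries of 5 NCD rats and 11 tumour libraries of 4 HFD rats with no intervention, all in 1 of the 2 batches that the labels name (batch 1). Another 3 tumour libraries came from 2 liraglutide-treated rats and 3 from 2 diet-restricted rats, all in the other (batch 2), so that intervention and batch cannot be told apart. The 34 libraries labelled as normal endometrium came from the same groups and from HFD rats with no intervention in batch 2. The rule leaves out 3 of them (S1, S20 and S35), which the study's supplement lists as mixed normal and tumour tissue. It uses 5 of batch 1 and 26 of batch 2, against 25 tumour libraries of batch 1 and 6 of batch 2. Tissue and batch can therefore be only partly told apart. For members on in batch 1, silence rests mostly on normal libraries of the other batch. Of the 67 samples in the labels, 2 were not analysed here.

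Endometrial carcinoma arises from the glandular epithelium of the uterus. In this strain it develops with age under the action of oestrogen. Cells of a tumour often carry RNA of genes that their tissue of origin keeps off, and which genes these are can differ from tumour to tumour. RNA was taken from whole tissue, in which more cells of a type and more RNA per cell cannot be told apart. Several tumour samples were taken from most rats, and these share the animal's genome. The sources used here do not pair the transcript identifiers with gene names or sequences, so that members are given by Ensembl transcript identifier, no role is given for any of them, and neither the tissue nor a cell type was checked against markers.

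Both tumours of diet-restricted rat 9 (S42 and S43) stood apart from all other tumours over the whole table. Across 18086 transcripts with a mean TPM above 1, the median Pearson correlation of log2(TPM + 1) with tumours of other rats was 0.797 for S42 and 0.783 for S43, against 0.850 to 0.925 (median 0.909) for the other 29 tumour libraries. With each other they correlated at 0.976. These correlations describe libraries over the same transcripts. The pair was not the same library deposited again, since a chi-square of their estimated counts was 31.8 per transcript, where sampling noise gives about 1, and all 28 pairs of tumours from the same rat lay between 11.1 and 135. In S42, 106 transcripts were on that stayed below 1 in every tumour of other rats, and in S43 there were 92, against 0 to 28 in the other libraries. These numbers include members. Without the 109 members, the correlations were 0.803 and 0.789, against 0.850 to 0.925, and 40 and 26 such transcripts were left, so that by this second measure S43 was within the range of the others. Total estimated counts were 15310806 to 19710563 in tumours and 16185536 to 20029879 in the normal libraries used by the rule. Results that rest on them are therefore given with and without rat 9.

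The members were on mainly in those 2 libraries. In S42, 97 of 109 members were on and in S43 96, and the same 96 were on in both. The rule asks for 2 libraries, so that a member on in rat 9 alone had to be on in both. In the other 29 tumour libraries, 0 to 10 members were on (median 1). No member was on in 10 of the 31 tumours, 1 to 3 were on in 14, 4 to 10 in 5 and more than 10 in 2. Without the tumours of rat 9, 14 transcripts met the rule, and 95 members (87.2%) were lost.

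**Figure D1:**
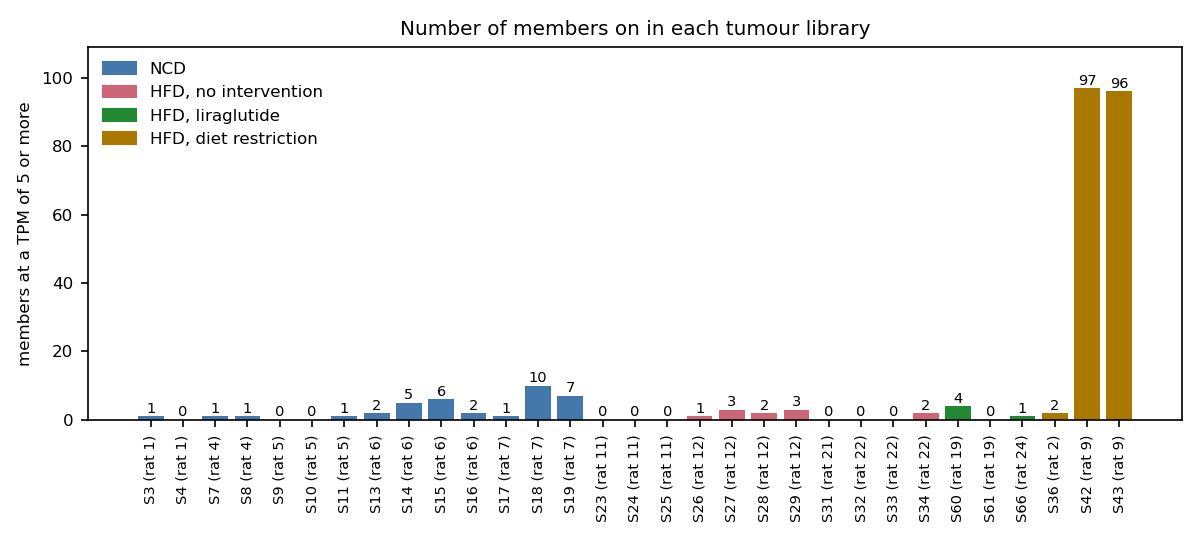
Number of the 109 members at a TPM of 5 or more in each tumour library, with the rat in brackets and bars coloured by diet and intervention. S42 and S43 of diet-restricted rat 9 reach 97 and 96, and no other library exceeds 10.

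The summed TPM of the members followed the same division. It was 3858 in S42 and 3490 in S43, or 0.386% and 0.349% of all TPM in those libraries. Next came S60 of liraglutide-treated rat 19 at 456, S18 of NCD rat 7 at 213 and S15 of NCD rat 6 at 178. The 31 normal libraries lay between 6.28 and 15.0 (median 9.87), and the tumours other than those of rat 9 between 10.3 and 456 (median 25.2). Of the 31 tumours, 7 were within the range of the normal libraries: S31 of HFD rat 21 at 10.3, the 3 tumours of HFD rat 11 at 10.4 to 12.2, S32 of HFD rat 22 at 12.4, and S9 and S10 of NCD rat 5 at 14.2 and 11.1.

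**Figure D2:**
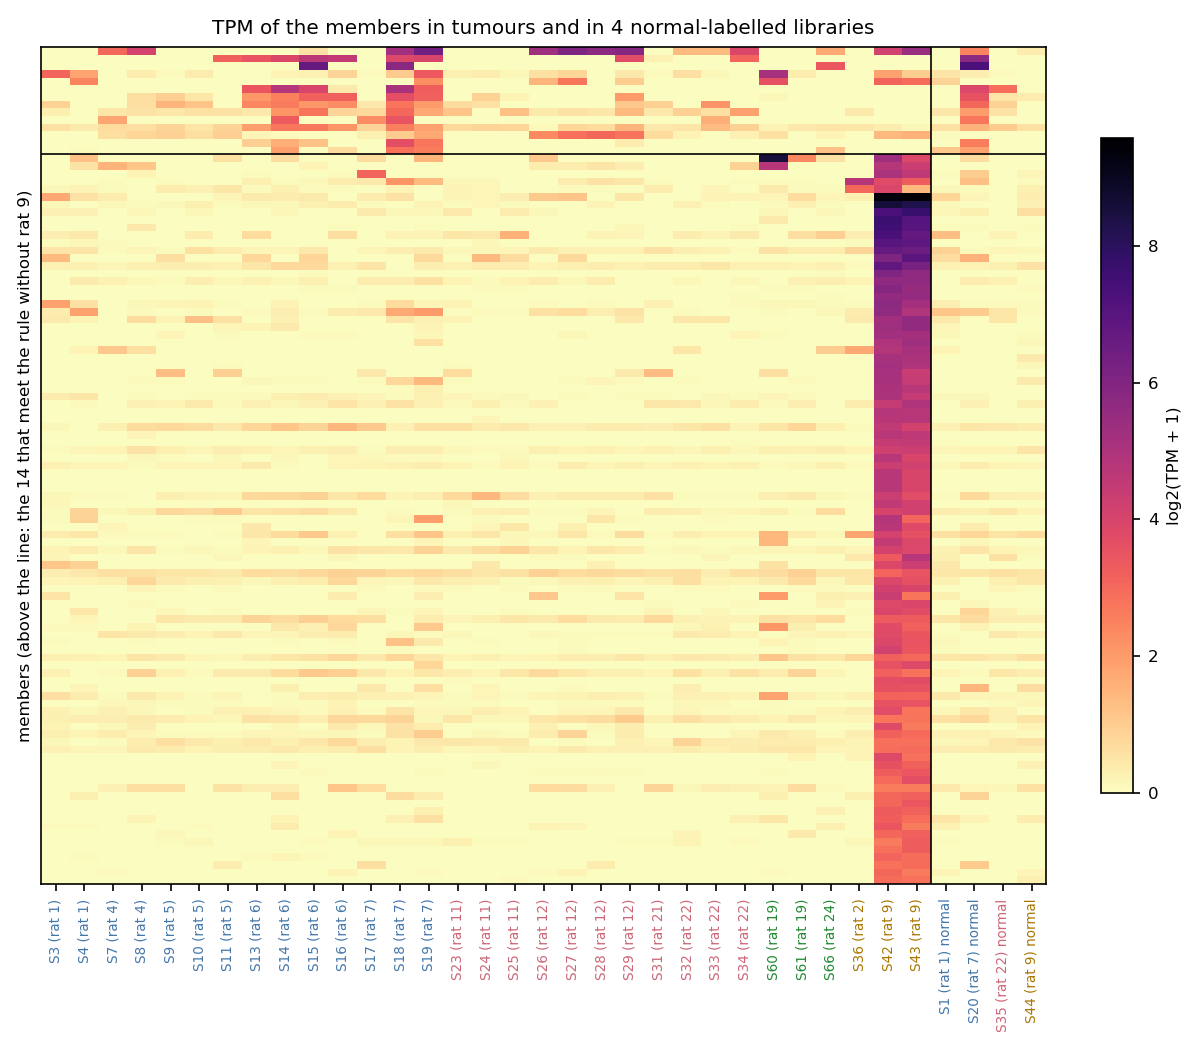
log2(TPM + 1) of the 109 members (rows) in 31 tumour libraries and in 4 libraries labelled normal (S1, S20, S35 and S44 of rat 9), with library names coloured by group. Below the horizontal line lie the 95 members that meet the rule through rat 9; they are dark in S42 and S43, and 5 of them are also on in 1 tumour of another rat.

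Of the 97 members on in rat 9, 90 were on in no other rat. Of these 90, 66 were below a TPM of 1 in all other tumours, 8 of them listed at 0 there, and 24 reached 1 to 5 in at least 1 other tumour. The median over the 90 of the highest TPM in another rat's tumour was 0.404. Their mean over S42 and S43 ranged from 5.07 to 708 (median 16.1), with 62 at 10 or more and 7 at 100 or more. The smallest estimated count behind an on value ranged over all members from 7 to 13196 (median 213), and for 10 of the 90 it was under 50, so that those levels are the least precise.

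ENSRNOT00000067651.2 had the highest level of all members, 654 in S42 and 762 in S43. It was listed at 0.232 in S44, the normal endometrium of the same rat, and reached 2.37 in S3 of NCD rat 1, its highest level in another tumour. ENSRNOT00000001610.7 stood at 382 and 310 in S42 and S43, 0.168 in S44 and at most 0.291 elsewhere among tumours. For both members S42 and S43 were far above every other library, normal or tumour.

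Further members on in rat 9 alone had the same shape. ENSRNOT00000028458.5 was at 153 and 208 in S42 and S43 and at 0.524 in S44, its highest value in any normal library used. ENSRNOT00000072343.2 was at 202 and 131 and listed at 0 in S44, and 28 of the 29 other tumours were listed at 0 for it. ENSRNOT00000022113.4 was at 164 and 104, again 0 in S44, and 1.91 in S25 of HFD rat 11. In each of these 5 members both tumours of rat 9 lay above all other tumours.

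S42 and S43 resembled each other in level over the members on in both. Which members these were was largely set by the rule, which asks for 2 libraries. The 90 members on in rat 9 alone had to be on in both, so that both levels were at least 5. Over the 96 members on in both, the log2 ratio of S42 to S43 had a median of 0.20 and ran from -1.50 to 1.90. The 2 values were within 2-fold for 88 members, 66 were higher in S42 and 30 in S43. Pearson's correlation of their log2 TPM was 0.923 across these 96 members, which share both libraries and are not independent replicates. ENSRNOT00000008535.5 was the member on in S42 only, at 14.4 against 1.61 in S43. It was also on in S36, the tumour of diet-restricted rat 2, at 7.21.

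None of this was seen in the normal endometrium of the same animal. In S44 the highest member TPM was 0.617, and 58 of the 109 members were listed at 0. S44 was one of the libraries the rule required to be silent, so that this is a description. It was in batch 2, as were S42 and S43.

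**Figure D3:**
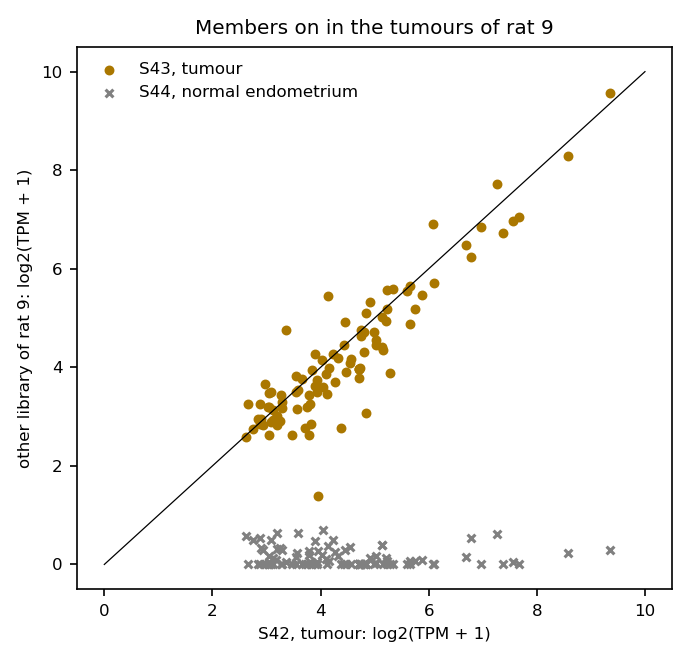
TPM of the 97 members on in diet-restricted rat 9, with tumour S42 on the x axis and the other libraries of the rat on the y axis, all as log2(TPM + 1). The line marks equal values. Tumour S43 (circles) lies near it, and normal endometrium S44 (crosses) stays below a TPM of 1.

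Of the 109 members, 94 were on in 1 rat, 10 in 2 rats, 3 in 3 rats and 2 in 5 rats. Besides the 90 of rat 9, 4 were on in 1 rat alone: 2 in NCD rat 7, 1 in NCD rat 6 and 1 in HFD rat 12. The rule can favour rats with more tumour libraries, and the 3 rats with 1 library (HFD rat 21, diet-restricted rat 2 and liraglutide-treated rat 24) could hold no member alone. With 1 tumour library enough, 195 transcripts met the rule, of which 117 were on in S42, 100 in S43, 38 in S60, 21 in S18, 11 in S36 and at most 8 in any other library.

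ENSRNOT00000073694.1, a transcript of 384 bases, was on in 11 tumour libraries of 5 rats, more than any other member. All 4 tumours of HFD rat 12 had it, at 39.5, 67.1, 52.5 and 59.1. In NCD rat 7 it was at 36.2 in S18 and 82.0 in S19 but listed at 0 in S17. NCD rat 4 had 7.28 and 15.8, HFD rat 22 had 14.2 in S34 with 1.56 and 1.57 in its other tumours, and rat 9 had 16.7 and 42.8. The estimated counts behind the 11 on values ran from 18 to 205, few for such levels, since the transcript is short.

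ENSRNOT00000084322.1 was on in 9 libraries of 5 rats, none of them in batch 2. All 4 tumours of NCD rat 6 had it, at 10.4, 14.0, 24.4 and 21.7. S18 and S19 of NCD rat 7 had 13.7 and 14.8, and single tumours of 3 further rats had 8.12 (S11, NCD rat 5), 12.2 (S29, HFD rat 12) and 7.38 (S34, HFD rat 22). In rat 9 it was listed at 0.

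ENSRNOT00000054976.4 was uneven within rats. It was at 102 in S15 and below 1 in the other 3 tumours of NCD rat 6. It was at 53.6 in S18 and below 1 in S17 and S19 of NCD rat 7, and at 9.51 in S66 of liraglutide-treated rat 24. ENSRNOT00000089893.1 was on in S27 of HFD rat 12 at 5.69, in S60 at 11.3 and in S42 and S43 at 7.73 and 6.65.

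NCD rats 6 and 7 shared the most members of any pair of rats. Of the 8 members on in rat 6 and the 12 on in rat 7, 7 were the same, 87.5% of the first list and 58.3% of the second. Among the 78 pairs of rats, 25 shared a member and 8 shared 2 or more. The next highest number was 3, between rat 9 and liraglutide-treated rat 19. The 7 included ENSRNOT00000009556.7, at 10.1, 26.8 and 15.0 in S13, S14 and S15 and at 32.6 and 8.30 in S18 and S19, and listed at or near 0 in the tumours of all other rats. They also included ENSRNOT00000092649.1, at 8.14 in S15, 8.13 in S16, 11.4 in S18 and 8.07 in S19.

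Tumours of the same rat did not always share members. In NCD rat 7, S18 had 10 members on and S19 had 7, of which 6 were the same, while S17 had 1, which neither of the others had on. In liraglutide-treated rat 19, S60 had 4 and S61 had 0. In HFD rat 22 both of its members were on in S34 and none in S32 or S33. Of the 28 pairs of tumours from the same rat, 15 shared at least 1 member (14 of 27 without rat 9), and the highest number shared without rat 9 was 6. Of the 437 pairs from different rats, 82 shared a member, with 5 as the highest number. These counts are not alike, since a member on in 1 rat alone meets the rule only if 2 or more libraries of that rat share it. There were 94 such members, 4 of them outside rat 9. NCD rats 4 and 6, HFD rat 12 and rat 9 were the rats with 2 or more tumour libraries in which some member was on in all.

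**Figure D4:**
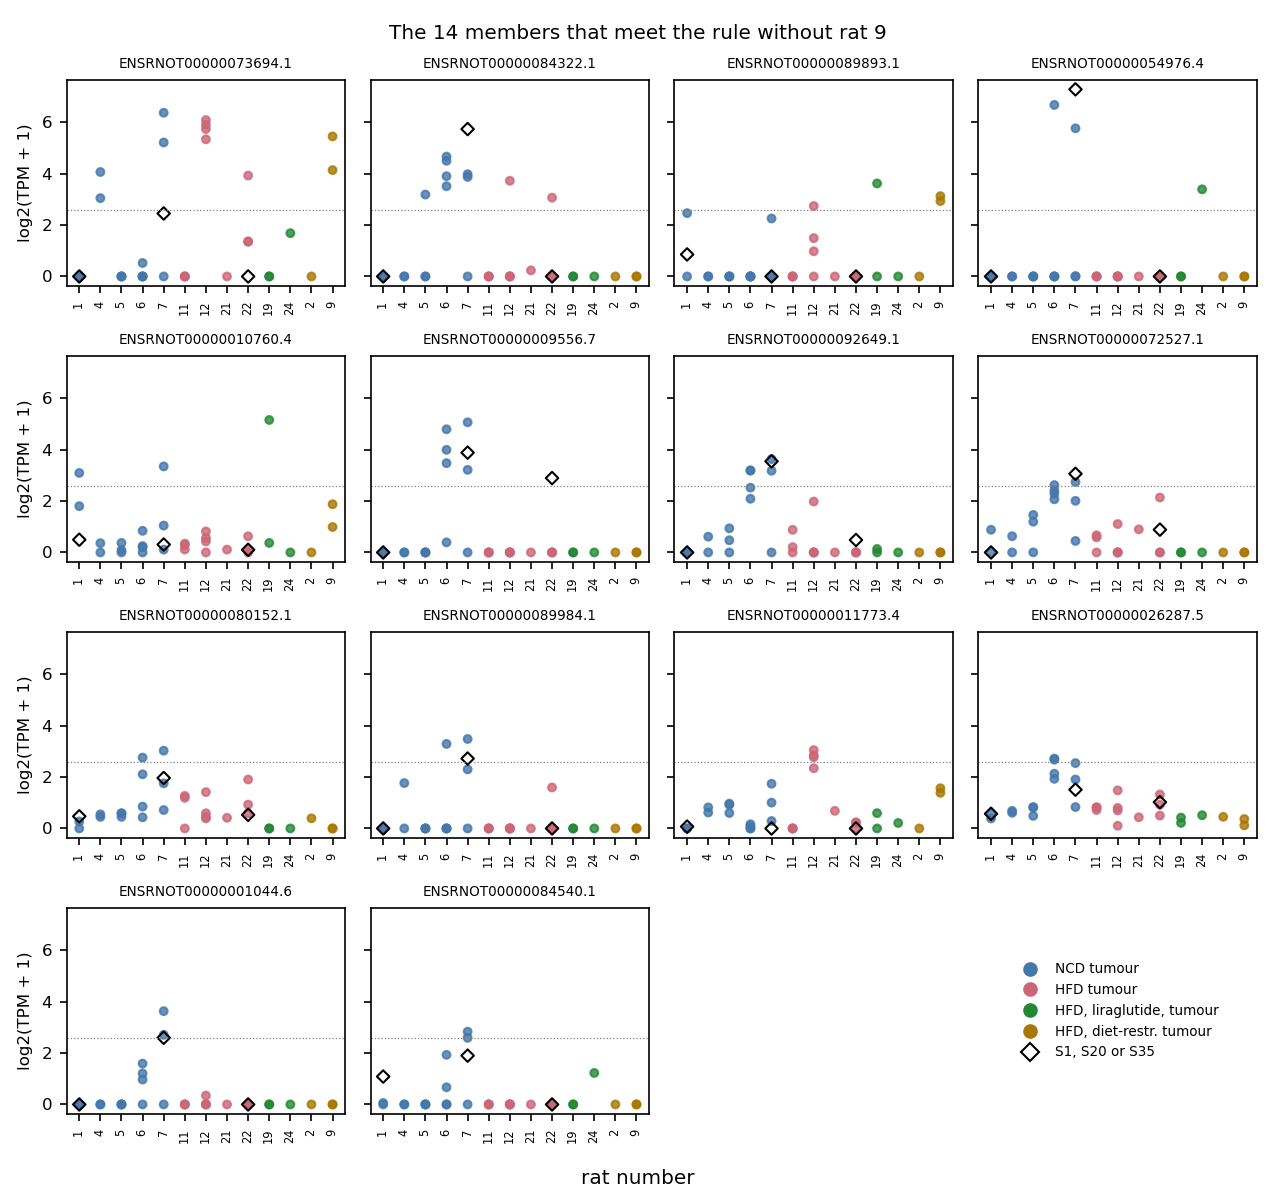
log2(TPM + 1) of the 14 members that meet the rule without rat 9, by rat number, with circles for tumour libraries coloured by group and diamonds for S1, S20 and S35. The dotted line marks a TPM of 5. Points of NCD rats 6 and 7 lie above it in most panels, while ENSRNOT00000073694.1 also does so in NCD rat 4, HFD rats 12 and 22 and rat 9.

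The 14 were chosen with their values known. Of them, 12 were on in NCD tumours, 4 in tumours of HFD rats with no intervention, 3 in liraglutide-treated tumours and 2 in diet-restricted ones, and 8 were on in NCD tumours alone. NCD has the most libraries. Of all 15406 transcripts on in 2 or more tumours other than those of rat 9, 3.35% were on in NCD tumours alone. All of these transcripts but the 14 reached a TPM of 1 or more in a normal library used, so that the 2 shares are not alike. These 8 were on only in rats 6 and 7, so that the 5 NCD rats did not contribute alike. Per library, 0 to 10 of the 14 were on in NCD tumours (median 1) and 0 to 3 in HFD tumours with no intervention (median 0).

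Whether diet changed these levels was tested within batch 1. The rule did not use diet, but members on in batch 1 meet it through values of these same tumours. HFD and NCD tumours were compared with limma on estimated counts of single libraries over 20071 transcripts. An estimated correlation of 0.590 between libraries of 1 rat was allowed for. No transcript was called at an adjusted p under 0.05 (0% of those tested), 173 had an unadjusted p below it, and edgeR on sums per rat called 0 and DESeq2 called 1 (0.00498%), which was no member. Of the members, 22 had enough counts to be tested and none was called by limma, edgeR or DESeq2 or had an unadjusted p under 0.05 by limma. Most of the 22 were on in rat 9 alone and in no tumour of batch 1. Those on in batch 1 were ENSRNOT00000011773.4, ENSRNOT00000026287.5, ENSRNOT00000072527.1, ENSRNOT00000080152.1 and ENSRNOT00000092649.1. The first meets the rule through HFD rat 12, the second through NCD rat 6 and the others through NCD rats 6 and 7. Their differences between the diets therefore reuse values that chose them, and nothing about diet is read from them. ENSRNOT00000073694.1 and ENSRNOT00000084322.1, on in the most libraries, did not pass the filter, so that the test says little about the members on in batch 1. The log2 difference, HFD minus NCD, had a median of -0.18 over the 22 members tested, beside 0.01 over all transcripts tested. For ENSRNOT00000092649.1 it was -3.11 ± 2.84 (SE) with an adjusted p of 1.00. The interval of such a value is too wide to show that the diets act alike.

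Tumours of treated rats and of HFD rats with no intervention were compared in 1 fit of the 17 HFD tumour libraries. The rule did not use intervention, but 95 members meet it through rat 9, a treated and diet-restricted animal, so that these counts reuse values that chose the members and nothing is read from them. Of 20041 transcripts, 1074 (5.36%) were called between treated and untreated tumours and 1404 (7.01%) between liraglutide-treated and diet-restricted tumours. Among the 25 members tested, limma called none in either, with 2 and 3 at an unadjusted p under 0.05. On sums per rat, edgeR also called none of the 25 (0.0748% and 0.155% of all transcripts called), while DESeq2 called 11 and 17 of them (11.1% and 14.1%). Where 2 libraries with 5 estimated counts were enough, 104 members were tested and limma called 0 (4.77% of all transcripts) and 1 (6.19%), the latter ENSRNOT00000084543.1, lower in liraglutide-treated tumours. Of these 104, 63 had enough counts only through the 2 libraries of rat 9. The median log2 difference of these 25, treated minus untreated, was 1.39, beside -0.05 over all transcripts. For liraglutide minus diet restriction it was -2.27, beside -0.01. Without rat 9, 14 members had enough counts, 2 of which were among the 14 that meet the rule without it. The medians of those tested were then -0.61 and 0.48, the opposite sign in both. In that fit S36 of rat 2 is the only library of diet restriction, so that little can be read from the change of sign.

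Among the 25 members that passed the main filter, ENSRNOT00000036721.5 had the smallest p between the interventions, and it is named after its values were seen. It was at 15.5 and 11.1 in S42 and S43 and at 2.46 in S36 of the other diet-restricted rat. The liraglutide-treated tumours had 1.75, 0.271 and 0.100, below all 3, and the 11 untreated HFD tumours had 0.0710 to 0.594 (median 0.167). Its log2 difference, liraglutide minus diet restriction, was -4.35 ± 1.37 (SE) with an adjusted p of 0.0633 by limma. It meets the rule only through S42 and S43, so that this difference reuses the values that chose it. Nothing about intervention is read from it.

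Without S36, the only library of diet-restricted rat 2, rat 9 stood alone for diet restriction, and since its values chose most members the counts that follow are set by the rule. Then 15 of 21 members tested were called higher in treated tumours, where 16.7% of all transcripts were called, and 17 of 21 were called lower in liraglutide-treated than in diet-restricted tumours, where 16.5% were called. With 1 rat left in that group, the fit assumes that this rat varies like the rats of the other groups. The same holds for the fit without rat 9, in which S36 is the only library of diet restriction. Without rat 9, limma called 0 of 14 members in either comparison, with 3 and 2 at an unadjusted p under 0.05, where 6.03% and 6.27% of transcripts were called.

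The 3 mixed libraries differed from each other. S20, labelled as normal endometrium of NCD rat 7, had 16 members at a TPM of at least 1 and 7 at 5 or more, with a summed member TPM of 281. S1 of NCD rat 1 had 3 members at 1 or more and none at 5, and S35 of HFD rat 22 had 2 and 1, with sums of 16.0 and 16.8, just above the 15.0 of the highest normal library used.

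Members on in the tumours of NCD rat 7 were also found in S20. Of the 12 members on in S17, S18 or S19, 10 were at 1 or more in S20 and 7 at 5 or more. Of the other 97 members, 6 were at 1 or more and none at 5. The 7 at 5 or more were all on in rat 7, and 6 of them were on in NCD rat 6 as well. ENSRNOT00000054976.4 was highest in S20, at 155, above the 53.6 of S18 and the 102 of S15, its highest values in tumours. ENSRNOT00000084322.1 was at 52.5 in S20, again above every tumour. ENSRNOT00000073694.1 was at 4.47 in S20, against 36.2 in S18 and 82.0 in S19, and ENSRNOT00000009556.7 was at 13.8.

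**Figure D5:**
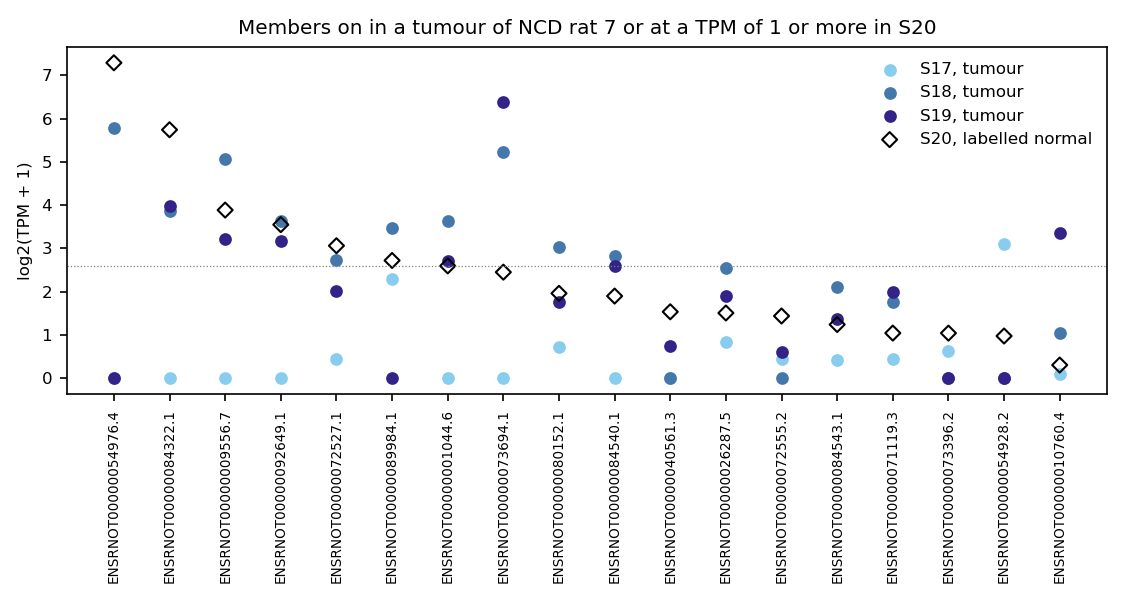
log2(TPM + 1) in tumours S17, S18 and S19 and in the library S20 of NCD rat 7, for the members on in one of these tumours or at a TPM of 1 or more in S20. The dotted line marks a TPM of 5. S20 (diamonds) is above both S18 and S19 for ENSRNOT00000054976.4, ENSRNOT00000084322.1 and ENSRNOT00000072527.1 and for some members below the line, and S17 is above the dotted line for 1 member.

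In S1 and S35, the few members on in tumours of their own rats were below a TPM of 1. The 1 member on in NCD rat 1, ENSRNOT00000010760.4, was at 0.410 in S1 against 7.55 and 2.49 in tumours S3 and S4. The member highest in S1 was ENSRNOT00000022113.4, at 1.43. Both members on in HFD rat 22 were listed at 0 in S35. Its highest member was ENSRNOT00000009556.7, at 6.44, which was not on in any tumour of that rat and was otherwise on in NCD rats 6 and 7.

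S60 of liraglutide-treated rat 19 was the tumour with the next highest sum after rat 9, and 1 member made up most of it. ENSRNOT00000079959.1, of 315 bases and on in 3 libraries of batch 2, as many as 3 other members and more than the rest, was at 361 in S60 and 4.15 in S61 of the same rat. It was at 37.9 in S42 and 13.8 in S43, and at most 1.79 in batch 1. ENSRNOT00000010760.4 was at 34.7 in S60 and ENSRNOT00000061079.2 at 26.4, the latter beside 26.9 in S42 and 18.7 in S43. ENSRNOT00000084543.1 was highest in S36, at 27.04, beside 12.9 and 8.56 in S42 and S43. ENSRNOT00000054928.2 was at 7.58 in S17, as the only member on there, and at 31.7 and 22.7 in S42 and S43.

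The members were shorter than other transcripts found in tumours. Their median length was 1428 bases (213 to 11356), against 2034 for the 15781 transcripts on in 2 or more tumours and 1672 for all 31715. The median was 1381 for the 90 members on in rat 9 alone and 1807 for the 14 that do not need rat 9. These lengths were not tested.

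The 2 sets also differed in how reads had been assigned. Kallisto, which made the counts, divides reads that match several transcripts among them, so that the result need not be whole. Of the 180 on values of the 90 members in S42 and S43, 135 (75.0%) were whole within 0.001, against 52.7% of all on values in these libraries. Of the 54 on values of the 14 members in all tumours, 11 (20.4%) were whole, against 51.9% of all on values. The 11 whole values were all those of ENSRNOT00000073694.1. For the other 13, including ENSRNOT00000084322.1 and ENSRNOT00000009556.7, no on value was whole, so that reads shared with other transcripts entered these levels. How many were shared is not given by the counts, and the 3 on values of ENSRNOT00000011773.4 (107.009, 130.012 and 110.006) were close to whole. Nor does a whole value show that no reads were shared. ENSRNOT00000018456.4, ENSRNOT00000074363.1 and ENSRNOT00000081498.1, each of 336 bases, had identical values in every library, with estimated counts of 67 in S42 and 38.6667 in S43. Each is counted as a separate member.

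Members close to the thresholds show how the number was set. ENSRNOT00000040561.3 and ENSRNOT00000010613.6 were just inside the limit in normal endometrium, with highest values of 0.997 and 0.990, and ENSRNOT00000014519.7 and ENSRNOT00000075136.2 were just outside it at 1.02 in both. By the tumour level, ENSRNOT00000088995.1 and ENSRNOT00000084540.1 were just inside, with a second highest value of 5.02 and 5.04. ENSRNOT00000091311.1 and ENSRNOT00000019844.6 were just outside it at 4.90 and 4.86.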

How the data were processed

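RNA-seq values of 65 libraries were analysed by transcript identifier. The authors made libraries from polyadenylated RNA, trimmed the paired reads (BBDuk) and assigned them to transcripts of Rnor_6.0 by Kallisto's pseudo-alignment. The submitters' processing notes add sleuth, and no tool's version was found in the sources used here. For each transcript and library the authors deposited estimated counts, not always whole and not scaled between libraries, together with TPM, transcript length and effective length. A TPM corrects for length, has the same sum in each library and was used as deposited for the rule and for all levels. Because it is a share, a rise of other transcripts lowers it. Libraries of the same number within a diet, intervention and batch were taken as 1 rat, which was not tested. Where nothing else is said, p-values are from limma, which takes single libraries as units and allows for 1 estimated correlation between libraries of such a rat. Only edgeR and DESeq2 on sums per rat take the rat as the unit.

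Members and comparisons were chosen with earlier results of these data known. Contrasts that the rule did not use were fitted with limma 3.58.1 (voom on estimated counts, duplicateCorrelation on the rat in 2 rounds, robust empirical Bayes, Benjamini-Hochberg adjustment over all transcripts tested) in R 4.3.3. Transcripts were tested where 47% or more of a fit's libraries held 5 or more estimated counts, and scaling was by the median of ratios. edgeR 4.0.16 and DESeq2 1.42.0 on rounded sums of each rat's libraries were alternatives, beside other filters and scalings, no correlation within rats, a model that was not robust, other forms of the rule and leaving out each rat. The limma step was tested on simulated data. A single TPM near the threshold can rest on few reads, and counting error is included in the voom weights. Named members are those on in most rats, those with the highest levels over rats or in 1 rat, the highest in each mixed library, those nearest each threshold, the smallest p among called members and the member on in most batch 2 libraries. Under the limma settings above no member was called, so that the rule by p named none, and other members named were chosen after their values were seen. Gene symbols and cell type markers could not be matched, since the tables used here do not hold these identifiers.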

Additional observations from a re-analysis of the deposited data

Results flagged for a closer look

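A check for outlying values covered 34 sets of 4 to 10 values (means per rat for tumours with no intervention, single libraries for normal endometrium), with a TPM below 0.01 read as 0. Chance flags about 1 in 20 such sets, and values that are near 0 in most rats are flagged readily. Among the 4 HFD rats with no intervention, rat 12 lay above the others in the summed member TPM (mean 78.3), in ENSRNOT00000073694.1 (54.6), in ENSRNOT00000089893.1 (2.12) and in ENSRNOT00000079959.1 (0.278). HFD rat 11 did so in ENSRNOT00000028458.5 (0.212), a level below that at which a member is called on. Among the 5 NCD rats, rat 1 lay above the others in ENSRNOT00000067651.2 (1.42). Among the 4 libraries labelled NCD normal endometrium, S20 was apart in the number of members on (7) and in their summed TPM (281). Among the 4 of HFD rats with no intervention in batch 1, S35 was apart in both (1 and 16.8). The rule leaves out S20 and S35 but required the libraries beside them, except S1, to be silent for every member. The flags of S20 and S35 are therefore largely set by the rule. Both tumours of diet-restricted rat 9 belong to a group of 3 libraries, which is too small for this check.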

How the results depend on the processing

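The number of transcripts that meet the rule was 109 and moved with each threshold. It was 67 with normal endometrium below 0.5 TPM, 177 below 2, 266 with tumours at 2 TPM or more, 64 at 10 or more and 195 with 1 tumour library. It was 15 with tumours of 2 or more rats, 13 with tumours of batch 1 only, and 262 or 184 with normal endometrium of batch 1 or batch 2 only. Leaving out the tumours of 1 rat gave 14 to 109, where 14 was without rat 9 and every other rat gave 104 or more. The other 4 forms of the rule stayed within 1.5 times, among them 92 with S1, S20 and S35 counted as normal. Between the diets, DESeq2 called 1 transcript and every other alternative and left-out rat (0 to 0) called none. Between treated and untreated tumours, the 1074 calls became 15 with edgeR and 2226 with DESeq2 on sums per rat, 5393 with no correlation within rats and 1621 with no filter. They were 27 to 3328 with a rat left out, moving by over 1.5 times without HFD rat 12 (47), HFD rat 22 (27), rat 2 (3328), rat 19 (124) or rat 24 (634). Between the interventions, 1404 became 31, 2834 and 4113 with the first 3 of these, and 6 to 3285 with a rat left out (501, 766, 3285, 6 and 239 without the same rats). With no filter limma called 3 and 9 of 109 members, where 5.78% and 6.94% of all transcripts were called. The cause of these differences was not tested. Depth limits the short members, whose on values rest on as few as 7 estimated counts. No paired analysis was made because each rat, as taken here, had 1 diet and 1 intervention, so that the tested comparisons lie between rats. In batch 2 the numbers 14, 16 and 17 recur in different intervention groups, in normal libraries only, and were taken as different rats. Tumour and normal libraries of a rat can be paired, but the rule used that difference.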
